A study of Drosophila melanogaster with 14 samples.

Results

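The Sep2[2] and Sep5[2] single mutants of Drosophila melanogaster were compared with each other across all expressed genes, using RNA of whole larvae of the third instar. They make up 6 of the 14 libraries of the series, 3 of each genotype. The 12586 genes compared are those, of 17869 in the table, that had a log2 CPM above 0 in at least 3 of the 14 libraries. CPM is a read count relative to library size. Sep2 larvae are labelled Sep2[2], Sep5 larvae Sep5[2], double mutants Sep2[2];Sep5[2], which the series text calls homozygous (4 libraries), and controls w1118 (4 libraries), a white-eyed laboratory strain. No treatment was given, and flies were kept at 25 °C on standard food. The sample labels name larvae, whereas the protocol text speaks of adult flies. The labels do not say what each allele removes, whether the mutants share the background of the control, or which sex the larvae were. They also do not say that replicates are separate animals or cultures. The p-values thus measure only how far these samples spread, and that spread may be technical.

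Septins bind GTP and form hetero-oligomers and filaments at the plasma membrane. They are best known for their part in cytokinesis and as scaffolds in nerve and muscle. In Drosophila the family is Septin1, Septin2, Septin4, Septin5 and peanut (pnut). Septin5 arose as a retrotransposed copy of Septin2, and both are known to act redundantly in the proliferation of imaginal cells. The comparison asks how larvae with a Septin2 mutation differ from larvae with a Septin5 mutation.

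The recovered reads per library numbered 14750548 to 24555801 in Sep2, 13230030 to 47203028 in Sep5, 8858393 to 36206632 in double mutant and 18138648 to 34040709 in control larvae. On the first principal component of the 6 single-mutant libraries (45.0% of the variance), Sep2 replicate 3 at -9.08 and Sep5 replicate 2 at 2.73 lay next to each other, while the other Sep2 libraries lay at -38.8 and -49.8 and the other Sep5 libraries at 39.8 and 55.1. On the second component (28.5%), Sep2 replicate 3 at 46.0 and Sep5 replicate 2 at -54.8 lay at opposite ends. The markers of other stages were low: summed ovary and adult female markers came to 0.702 to 1.32 CPM in Sep2 and 1.16 to 1.87 CPM in Sep5 larvae, and adult eye markers to 4.89 to 6.32 CPM in Sep2 and 8.06 to 10.8 CPM in Sep5 larvae, against 25648 to 30582 CPM in Sep2 and 24645 to 43410 CPM in Sep5 larvae for the larval fat body markers. In double mutant replicate 4, Septin2 stood at 9.11 CPM, against 0.270 to 0.726 CPM in the other double mutant libraries.

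Each targeted gene was checked first. Septin5 (2R, positions 7960133 to 7961921) had 6.65, 8.01 and 6.18 CPM in Sep2 larvae, against 0.0681, 0.0194 and 0 CPM in Sep5 larvae, so no Sep5 library came near a Sep2 library. Over the 3 Sep5 libraries 2 reads fell on Septin5, 0.483% of the control rate (exact 95% interval 0.0584 to 1.75%, counting error only), whereas the Sep2 libraries held 466 reads, 136% of the control rate (121 to 153%). The difference had a log2 fold change of 6.05 ± 0.60 (SE; limma adjusted p = 5.24e-05), and adjusted p over the alternatives ran 4.34e-06 to 0.00110. Septin2 (3R, positions 20586129 to 20588356) had 21.7, 29.4 and 26.2 CPM in Sep2 larvae, against 78.5, 58.5 and 47.8 CPM in Sep5 larvae. The groups did not overlap, but Septin2 RNA was still present in every Sep2 library, at 47.5% of the control rate (45.0 to 50.02%), and at 109% (105 to 113%) in Sep5 larvae. Double mutants, which carry the same allele label Sep2[2], had 0.270 to 9.11 CPM of Septin2, so each of them lay below every Sep2 library. The cause of this difference was not tested. Of Septin5 the double mutants had 0.116 to 1.34 CPM.

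The Septin2 difference did not pass the threshold. For Septin2 the log2 fold change was -1.24 ± 0.81 (SE; limma adjusted p = 0.528). It passed where the double mutant libraries were left out of the fit (adjusted p = 0.0172), where only the Sep2 and Sep5 libraries were fitted (0.0477) and where double mutant replicate 4 alone was left out (0.0459), and adjusted p over all alternatives ran 0.0172 to 0.965. Each genotype had less RNA of its own targeted gene than the other genotype in every library. The other septins did not pass the threshold. Septin1 had a log2 fold change of 0.18 (limma adjusted p = 0.826), Septin4 of 0.18 (limma adjusted p = 0.784) and pnut of 0.38 (limma adjusted p = 0.468), with pnut at 116, 117 and 107 CPM in Sep2 and 103.8, 92.4 and 68.5 CPM in Sep5 larvae.

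Of all 12586 genes, 306 (2.43%) differed between Sep2 and Sep5 larvae at an adjusted p under 0.05: 142 (1.13%) were higher and 164 (1.30%) lower in Sep2 larvae. Of these, 131 were higher and 146 lower by at least 2-fold, and 72 were higher and 59 lower by at least 4-fold. The median absolute log2 fold change of the 306 genes was 1.83, and the median log2 fold change of all tested genes was 0.01. No called gene had overlapping groups, and the groups did not overlap for 2517 of all tested genes (20.0%). The called genes had a median of 1.93 log2 CPM over the 6 libraries, against 4.07 for all tested genes. The count moved when 1 library was left out, which leaves its group with 2: it was 155 without Sep2 replicate 1, 177 without Sep2 replicate 2, 198 without Sep2 replicate 3, 200 without Sep5 replicate 1, 290 without Sep5 replicate 2 and 157 without Sep5 replicate 3. No called gene changed sign in these runs. In each of the 14 runs that left out 1 library, 122 of the 306 genes were called (66 higher and 56 lower in Sep2 larvae).

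**Figure D1:**
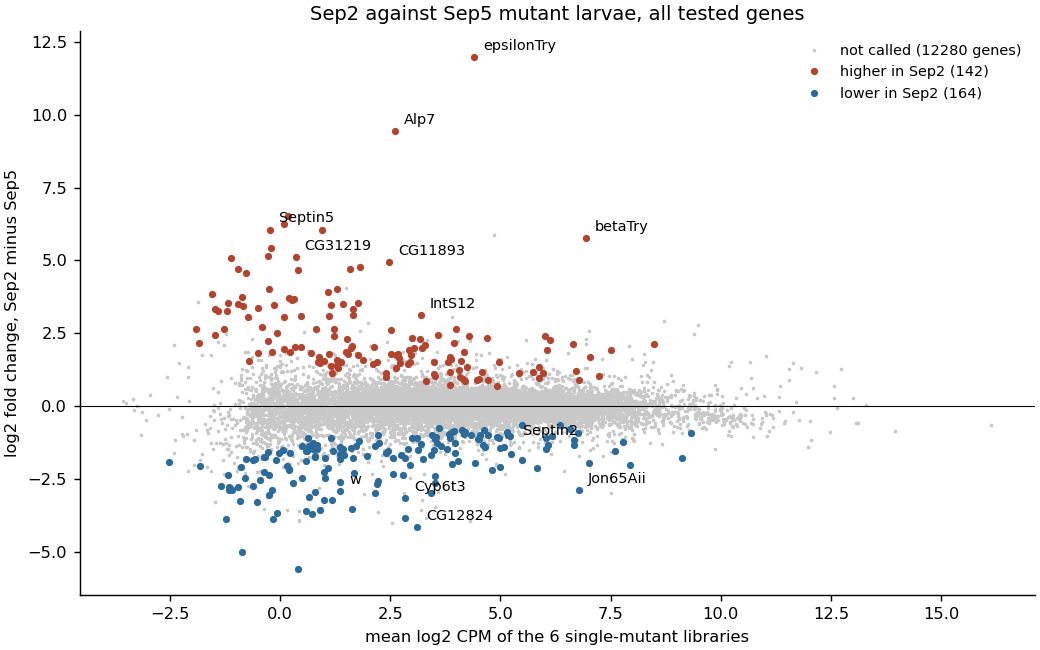
Log2 fold change of Sep2 over Sep5 larvae (vertical axis) against the mean log2 CPM of the 6 single-mutant libraries (horizontal axis), 1 point per tested gene. Red points are the 142 genes higher in Sep2 larvae, blue points the 164 lower ones and grey points the genes not called. epsilonTry at 11.98 and Alp7 at 9.43 lie far above the rest, and Septin2 lies among the genes that were not called.

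The largest fold change belonged to a digestive enzyme gene. epsilonTry (2R, positions 11345237 to 11346066), a trypsin-family serine protease gene, had 1190.5, 1201 and 1726 CPM in Sep2 larvae, against 0.545, 0.117 and 0.224 CPM in Sep5 larvae. It was abundant in every Sep2 library and nearly absent in every Sep5 library. For epsilonTry the log2 fold change was 11.98 ± 0.39 (SE; limma adjusted p = 2.05e-10). Double mutants had 63.9 to 103 CPM and controls 375 to 838 CPM, so the double mutants lay between both single mutants. Its neighbour betaTry, another trypsin, had 1086, 719.5 and 950.2 CPM in Sep2 larvae, against 23.02, 11.5 and 17.2 CPM in Sep5 larvae. For betaTry the log2 fold change was 5.76 ± 0.37 (SE; limma adjusted p = 9.72e-07). Controls had 384 to 771 CPM of betaTry, so the Sep5 libraries were the low ones for both trypsins.

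lambdaTry, at the edge of the same cluster and named after its values were seen, held 203 reads over the Sep2 libraries and 0 over the Sep5 libraries. With a floor of 3 reads over the group it was at least 81.7-fold higher in Sep2 larvae, with a limma adjusted p of 0.0108. This call ended without Sep2 replicate 3, with 1 CPM added and with voom weights on the recovered reads (adjusted p over the alternatives 0.00163 to 0.156). The other tested trypsins of the cluster did not pass the threshold. alphaTry, which lies next to epsilonTry, had 214, 183 and 112 CPM in Sep2 and 258, 158 and 76.8 CPM in Sep5 larvae, with a log2 fold change of 0.16 (limma adjusted p = 0.903). kappaTry had one of -1.500 (limma adjusted p = 0.266), zetaTry -0.94 (limma adjusted p = 0.356), etaTry -0.53 (limma adjusted p = 0.5005), thetaTry -0.42 (limma adjusted p = 0.730), deltaTry -0.52 (limma adjusted p = 0.817) and iotaTry -0.28 (limma adjusted p = 0.828). Some of these genes are near-identical copies that can share reads: CG30031 had 58.2 CPM in Sep5 replicate 2 and at most 0.597 CPM in the other single-mutant libraries, and was too low in most libraries to be tested.

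**Figure D2:**
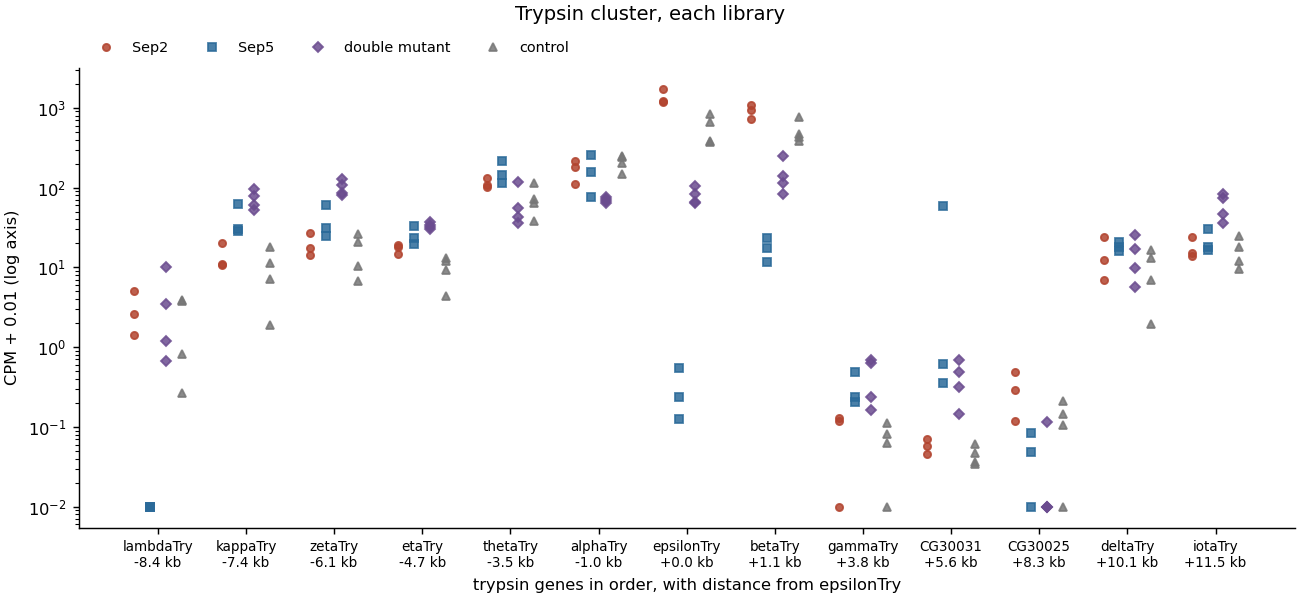
CPM plus 0.01 on a log axis for each library of the 4 genotypes (symbols), for the trypsin genes of the 2R cluster in their order, with the distance of each start from epsilonTry in kb. Sep5 libraries lie far below Sep2 libraries at lambdaTry, epsilonTry and betaTry, while alphaTry, between them, had overlapping groups.

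Of 47 tested digestive enzymes, 4 were higher (betaTry, epsilonTry, lambdaTry and Amyrel) and 3 lower in Sep2 larvae, and the median log2 fold change of the list was -0.10. The called share of the list was 14.9%, against 2.43% of all tested genes. Amyrel, an amylase-related gene, had 17.4, 15.7 and 20.8 CPM in Sep2 larvae, against 4.49, 2.33 and 4.11 CPM in Sep5 larvae. For Amyrel the log2 fold change was 2.32 ± 0.38 (SE; limma adjusted p = 0.00396). The lower ones were Jonah genes, a family of gut serine proteases. Jon65Aii had 40.2, 77.8 and 20.5 CPM in Sep2 larvae, against 312, 219 and 387 CPM in Sep5 larvae, with every Sep2 library below every Sep5 library. For Jon65Aii the log2 fold change was -2.89 ± 0.38 (SE; limma adjusted p = 0.000818). Double mutants had 31.9 to 40.2 CPM and controls 101 to 213 CPM of Jon65Aii, so the double mutants lay with the Sep2 larvae. Jon25Bii (log2 fold change -1.77, limma adjusted p = 0.0175) and Jon66Cii (log2 fold change -2.03, limma adjusted p = 0.0457), named after their values were seen, fell with it. The Jon25Bii call ended without Sep2 replicate 2 or 3 or Sep5 replicate 1 or 3 (adjusted p over the alternatives 0.00872 to 0.0731), and the Jon66Cii call in 10 of the 14 runs that left out 1 library (0.00354 to 0.207). The summed midgut markers overlapped, at 2737 to 3001 CPM in Sep2 and 2395 to 3132 CPM in Sep5 larvae. Of these 5 markers, 1 was itself called higher in Sep2 larvae. The sum is thus not separate from the called genes, and its overlap does not show that midgut content was the same. In RNA of whole larvae, fewer cells of a type and less RNA per cell cannot be told apart.

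Alp7 (2R, positions 22203694 to 22205593), an alkaline phosphatase gene, had 149, 85.8 and 325 CPM in Sep2 larvae, against 0.272, 0.0777 and 0.149 CPM in Sep5 larvae. The log2 fold change was 9.43 ± 0.72 (SE; limma adjusted p = 3.80e-06). Double mutants had 0 to 0.933 CPM and controls 44.7 to 115.1 CPM, so the double mutants lay with the Sep5 larvae and the controls nearer the Sep2 larvae. The neighbouring phosphatase Alp8 had a log2 fold change of 0.01 (limma adjusted p = 0.995). Further along the same stretch, Oatp58Db, an organic anion transporter gene, had 11.2, 12.5 and 20.1 CPM in Sep2 larvae, against 2.59, 1.46 and 2.99 CPM in Sep5 larvae, with a log2 fold change of 2.61 ± 0.57 (SE; limma adjusted p = 0.0245). The Oatp58Db call ended when any one of the 6 single-mutant libraries was left out (adjusted p 0.0550 to 0.0901, and over all alternatives 0.00126 to 0.0901), and its flanking paralogs Oatp58Da (log2 fold change 0.85, limma adjusted p = 0.206) and Oatp58Dc (log2 fold change -0.11, limma adjusted p = 0.932) did not pass the threshold.

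The products of cytochrome P450 genes oxidise hormones, toxins and dietary compounds. Of 66 tested, 6 were lower and 1 was higher in Sep2 larvae, with a median log2 fold change of -0.10. The called share was 10.6%, against 2.43% of all tested genes. Cyp6t3 (2R, positions 12190682 to 12192436) had 2.30, 2.36 and 2.25 CPM in Sep2 larvae, against 23.2, 17.7 and 22.996 CPM in Sep5 larvae. For Cyp6t3 the log2 fold change was -3.16 ± 0.24 (SE; limma adjusted p = 3.80e-06). Its neighbour Cyp6g2 had 4.47, 5.83 and 4.59 CPM in Sep2 larvae, against 27.5, 21.8 and 30.6 CPM in Sep5 larvae. For Cyp6g2 the log2 fold change was -2.40 ± 0.26 (SE; limma adjusted p = 0.000113). For both genes the Sep5 libraries were the high ones: double mutants had 26.0 to 43.8 CPM of Cyp6t3 and 29.2 to 61.7 CPM of Cyp6g2, and controls 2.24 to 3.80 CPM and 4.67 to 6.51 CPM. Cyp6g1, which overlaps the end of Cyp6g2 and is known for its part in insecticide resistance, did not pass the threshold (log2 fold change 0.39, limma adjusted p = 0.648).

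Among the other P450 genes, Cyp304a1 had 17.4, 14.5 and 14.2 CPM in Sep2 larvae, against 55.0, 30.2 and 34.3 CPM in Sep5 larvae. For Cyp304a1 the log2 fold change was -1.33 ± 0.24 (SE; limma adjusted p = 0.00803), and the gene missed the threshold where only the Sep2 and Sep5 libraries were fitted (adjusted p = 0.0506, over all alternatives 0.00112 to 0.0506). Cyp6a20 had 0.785, 1.25 and 1.03 CPM in Sep2 larvae, against 4.97, 2.52 and 3.88 CPM in Sep5 larvae, with a log2 fold change of -1.78 ± 0.40 (SE; limma adjusted p = 0.0297). Its call ended when any single-mutant library but Sep5 replicate 2 was left out (adjusted p 0.0589 to 0.143, over all alternatives 0.000560 to 0.143). Cyp12c1 (log2 fold change -0.97, limma adjusted p = 0.0406), Cyp28a5 (log2 fold change -1.39, limma adjusted p = 0.0369) and the higher Cyp310a1 (log2 fold change 0.92, limma adjusted p = 0.0355), named after their values were seen, each lost their calls in at least 5 of the 14 runs that left out 1 library, with adjusted p up to 0.181, 0.195 and 0.157. Of 34 glutathione S-transferases, which conjugate such compounds, 2 were higher in Sep2 larvae (5.88%, against 2.43% of all tested genes called) and none lower, with a median of 0.22. GstE3 had 152, 168 and 137 CPM in Sep2 larvae, against 36.7, 28.3 and 30.5 CPM in Sep5 larvae. For GstE3 the log2 fold change was 2.26 ± 0.34 (SE; limma adjusted p = 0.00200), without overlap. GstE14, which is known to act in ecdysteroid synthesis, had 2.48, 3.51 and 3.18 CPM in Sep2 larvae, against 1.09, 1.15 and 0.896 CPM in Sep5 larvae. For GstE14 the log2 fold change was 1.47 ± 0.33 (SE; limma adjusted p = 0.0281), a call that ended when any one of the 6 libraries was left out (adjusted p 0.0504 to 0.130, over all alternatives 0.00755 to 0.130).

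Several genes of the right arm of the third chromosome, the arm of Septin2, were high in Sep2 and double mutant larvae and low in Sep5 larvae and controls. CG11893, a member of the ecdysteroid kinase-like family (3R, positions 25289889 to 25291366), had 22.9, 27.5 and 47.0 CPM in Sep2 larvae, against 0.953, 0.641 and 1.27 CPM in Sep5 larvae. For CG11893 the log2 fold change was 4.95 ± 0.36 (SE; limma adjusted p = 2.78e-06). Double mutants had 17.7 to 29.8 CPM and controls 0.408 to 1.01 CPM. Of its paralogs beside it, CG31098 had a log2 fold change of -0.35 (limma adjusted p = 0.672) and CG13658 of -0.34 (limma adjusted p = 0.672). CG31097, further along the same stretch and named after its values were seen, was lower in Sep2 larvae (log2 fold change -1.89, limma adjusted p = 0.0175). That call ended without Sep2 replicate 1 or 3 or Sep5 replicate 3, and where only the Sep2 and Sep5 libraries were fitted (adjusted p over the alternatives 0.00103 to 0.0952). IntS12 (3R, positions 26863376 to 26864559), a subunit of the Integrator complex that processes small nuclear RNAs, had 29.1, 24.7 and 27.2 CPM in Sep2 larvae, against 3.88, 2.27 and 3.06 CPM in Sep5 larvae. For IntS12 the log2 fold change was 3.13 ± 0.28 (SE; limma adjusted p = 2.03e-05). Double mutants had 44.9 to 91.3 CPM and controls 2.33 to 3.92 CPM of IntS12, while its neighbour ball, a chromatin kinase gene, had a log2 fold change of 0.22 (limma adjusted p = 0.499).

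NijC, a ninjurin-family membrane protein gene that overlaps Past1, had 40.2, 50.9 and 31.3 CPM in Sep2 larvae, against 12.3, 3.81 and 5.30 CPM in Sep5 larvae. For NijC the log2 fold change was 2.65 ± 0.36 (SE; limma adjusted p = 0.000849). Double mutants had 15.5 to 21.8 CPM and controls 4.55 to 8.28 CPM of NijC, again with the Sep5 larvae near the controls. Against the control, which both single mutants share, CG11893 had a log2 fold change of 5.37 (limma adjusted p = 1.63e-06) in Sep2 and 0.42 (limma adjusted p = 0.509) in Sep5 larvae. For IntS12 these were 3.17 (limma adjusted p = 6.41e-06) in Sep2 and 0.04 (limma adjusted p = 0.955) in Sep5 larvae. For epsilonTry they were 1.34 (limma adjusted p = 0.0508) in Sep2 and -10.65 (limma adjusted p = 4.24e-10) in Sep5 larvae, and for Cyp6t3 -0.40 (limma adjusted p = 0.315) in Sep2 and 2.76 (limma adjusted p = 6.14e-06) in Sep5 larvae. Of all tested genes, 566 (4.50%) were called in Sep2 and 646 (5.13%) in Sep5 larvae against the control.

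**Figure D3:**
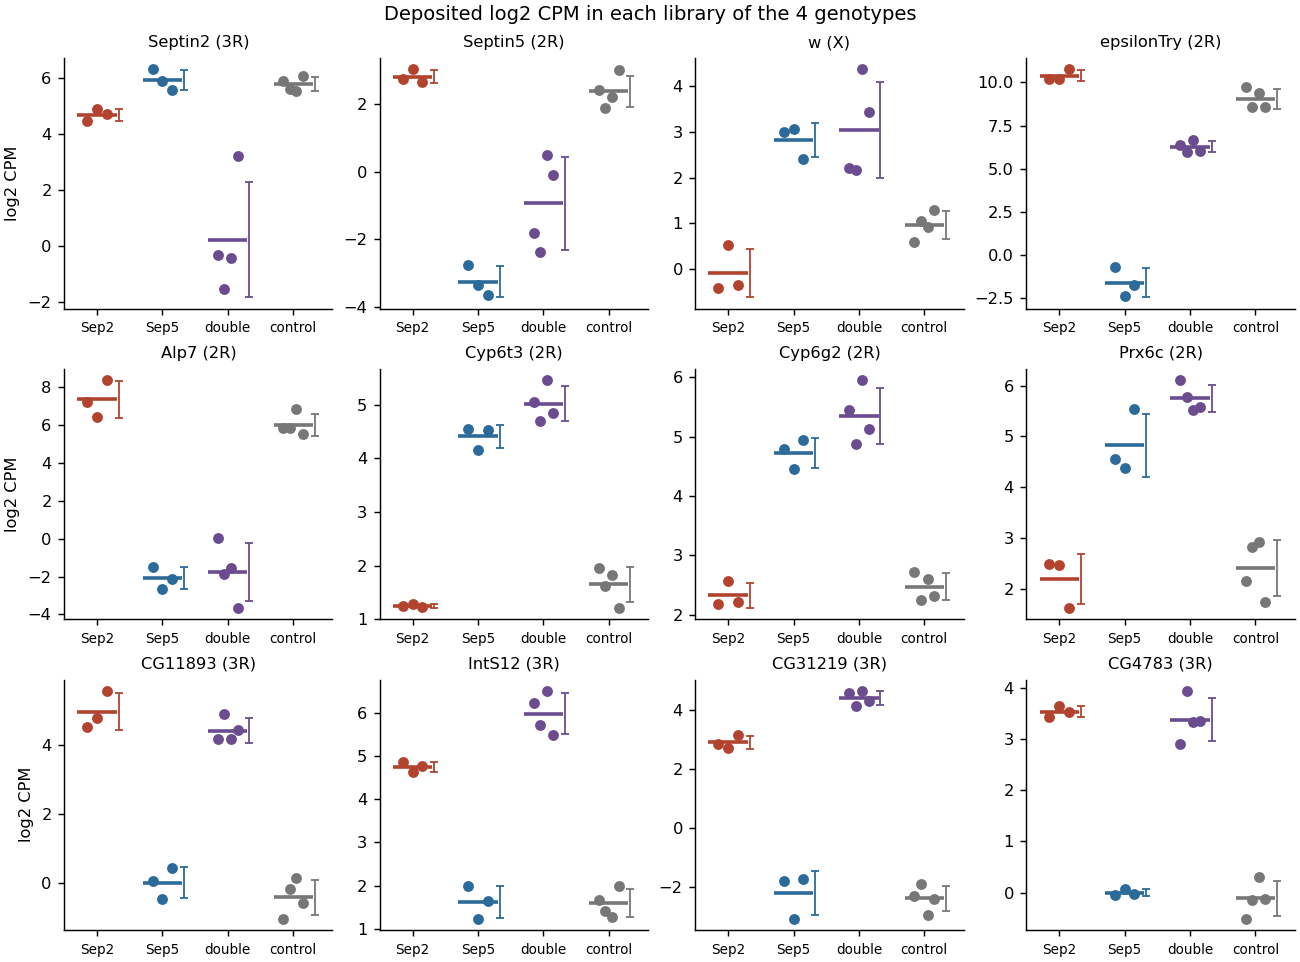
Deposited log2 CPM in each library (points) of Sep2, Sep5, double mutant and control larvae, with the mean (line) and 1 SD (bar), for the targeted septins, w and 9 called genes, each with its chromosome arm. The 2R genes Alp7, Cyp6t3, Cyp6g2 and Prx6c have the double mutant near Sep5. The 2R gene epsilonTry differs: its double mutant mean of 6.28 log2 CPM is nearer Sep2 (10.4) than Sep5 (-1.58). The 3R genes CG11893, IntS12, CG31219 and CG4783 have the double mutant near or above Sep2.

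The genes around both targeted loci were read in the same way. Within 1 Mb of Septin2, 9 of 206 tested genes were called (4.37%; 6 higher and 3 lower in Sep2 larvae), against 44 of 2892 on the rest of 3R (1.52%). The share varied with the window: 3 of 55 within 0.25 Mb (5.45%) and 3 of 96 within 0.5 Mb (3.125%). It was 12 of 406 within 2 Mb (2.96%) and 25 of 1131 within 5 Mb (2.21%). CG31219, 936 kb from Septin2, had 7.19, 6.55 and 8.80 CPM in Sep2 larvae, against 0.204, 0.0388 and 0.224 CPM in Sep5 larvae. For CG31219 the log2 fold change was 5.12 ± 0.37 (SE; limma adjusted p = 2.78e-06). Double mutants had 17.6 to 25.0 CPM and controls 0.0506 to 0.187 CPM. CG4783, 639 kb away, had 10.6, 12.3 and 11.4 CPM in Sep2 larvae, against 0.885, 0.971 and 0.896 CPM in Sep5 larvae. For CG4783 the log2 fold change was 3.53 ± 0.28 (SE; limma adjusted p = 4.40e-06), with 7.36 to 15.2 CPM in double mutants and 0.625 to 1.16 CPM in controls. CG7333 went the other way, with 0.665, 0.966 and 0.234 CPM in Sep2 larvae, against 3.34, 7.36 and 4.48 CPM in Sep5 larvae. For CG7333 the log2 fold change was -2.96 ± 0.43 (SE; limma adjusted p = 0.00160), with 0.134 to 0.173 CPM in double mutants. Mrp5, an ABC transporter gene, had 26.3, 26.8 and 25.0 CPM in Sep2 larvae, against 46.3, 56.0 and 57.9 CPM in Sep5 larvae. For Mrp5 the log2 fold change was -1.03 ± 0.18 (SE; limma adjusted p = 0.00571), with every Sep2 library below every Sep5 library.

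Within 1 Mb of Septin5, 7 of 291 tested genes were called (2.41%; 3 higher and 4 lower in Sep2 larvae), against 93 of 2239 on the rest of 2R (4.15%). Here the share was 2 of 80 within 0.25 Mb (2.5%) and 2 of 158 within 0.5 Mb (1.27%). It was 10 of 511 within 2 Mb (1.96%) and 35 of 951 within 5 Mb (3.68%). CG12824, 170.3 kb from Septin5, had 3.81, 3.04 and 0.608 CPM in Sep2 larvae, against 44.3, 33.3 and 32.6 CPM in Sep5 larvae. For CG12824 the log2 fold change was -4.17 ± 0.57 (SE; limma adjusted p = 0.00100). Controls had 17.1 to 34.0 CPM, so here the Sep2 libraries were the low ones. Odc2, an ornithine decarboxylase gene 47.1 kb from Septin5, had 3.02, 2.04 and 2.71 CPM in Sep2 larvae, against 15.3, 12.0 and 12.7 CPM in Sep5 larvae. For Odc2 the log2 fold change was -2.34 ± 0.29 (SE; limma adjusted p = 0.000406), and controls at 3.70 to 6.97 CPM lay between. CG12780 had 19.6, 32.1 and 12.8 CPM in Sep2 larvae, against 4.22, 5.79 and 4.03 CPM in Sep5 larvae, with a log2 fold change of 2.10 ± 0.30 (SE; limma adjusted p = 0.00145). Adk3, an adenylate kinase gene, had 86.2, 70.1 and 84.0 CPM in Sep2 larvae, against 43.7, 32.9 and 31.8 CPM in Sep5 larvae. For Adk3 the log2 fold change was 1.16 ± 0.22 (SE; limma adjusted p = 0.00945), and the gene missed the threshold without Sep2 replicate 1 or without Sep5 replicate 3 (adjusted p 0.0551 to 0.0555, over all alternatives 8.60e-05 to 0.0555).

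Called genes were then counted by chromosome. On the second chromosome, which carries Septin5, 179 of 4875 tested genes were called (3.67%), with 78 of 2344 on 2L (3.33%) and 101 of 2531 on 2R (3.99%). On the third chromosome, which carries Septin2, 95 of 5574 were called (1.70%), with 42 of 2475 on 3L and 53 of 3099 on 3R. On the X chromosome 28 of 1967 were called (1.42%), 8 higher and 20 lower in Sep2 larvae. The share was higher on the second than on the third chromosome under the main settings and each of the 26 alternatives, where it ranged 1.97 to 16.5% on the second and 0.718 to 14.2% on the third chromosome. Called genes with a called gene directly beside them numbered 28 of 302 (9.27%), while 4.74% of all tested genes had such a neighbour. By arm the share was 14.9% on 2R, against 7.86% of tested genes there, and 5.13% on 2L, against 6.48%. It was 7.14% on 3L, against 3.35%, 7.55% on 3R, against 3.23%, and 7.14% on X, against 2.80%. The shares on 3L, 3R and X rest on only 3, 4 and 2 called genes. Of the 15 pairs of called neighbours, 13 had the same direction.

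The double mutant means were then set beside the called genes of each chromosome. These libraries entered the shared variance and the filter on low values, and 8 of the 306 called genes passed that filter only with them. Among called genes of the second chromosome, the double mutant mean was nearer the Sep2 mean for 32 of 179 (17.9%) and nearer the Sep5 mean for 147, while it was nearer Sep2 for 30.4% of all tested genes of that chromosome. Genes of that chromosome that differed at least 2-fold without being called gave 21.6%, between both values. Among called genes of the third chromosome it was nearer the Sep2 mean for 49 of 95 (51.6%), against 34.5% of all tested genes and 36.1% of uncalled 2-fold genes there. Without the called genes that needed the double mutants to pass the filter, these shares were 17.6% and 50.5% on chromosomes 2 and 3. The control mean was nearer the Sep2 mean for 110 of 179 called genes of the second chromosome (61.5%), against 50.7% of tested genes and 67.4% of uncalled 2-fold genes there. On the third chromosome this held for 25 of 95 called genes (26.3%), against 47.1% of tested and 60.1% of uncalled 2-fold genes, and among them for 7 of 53 on 3R (13.2%), against 45.7% and 57.1%. None of these differences in share was tested. The alleles cannot be told apart from the rest of the chromosomes that carry them.

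**Figure D4:**
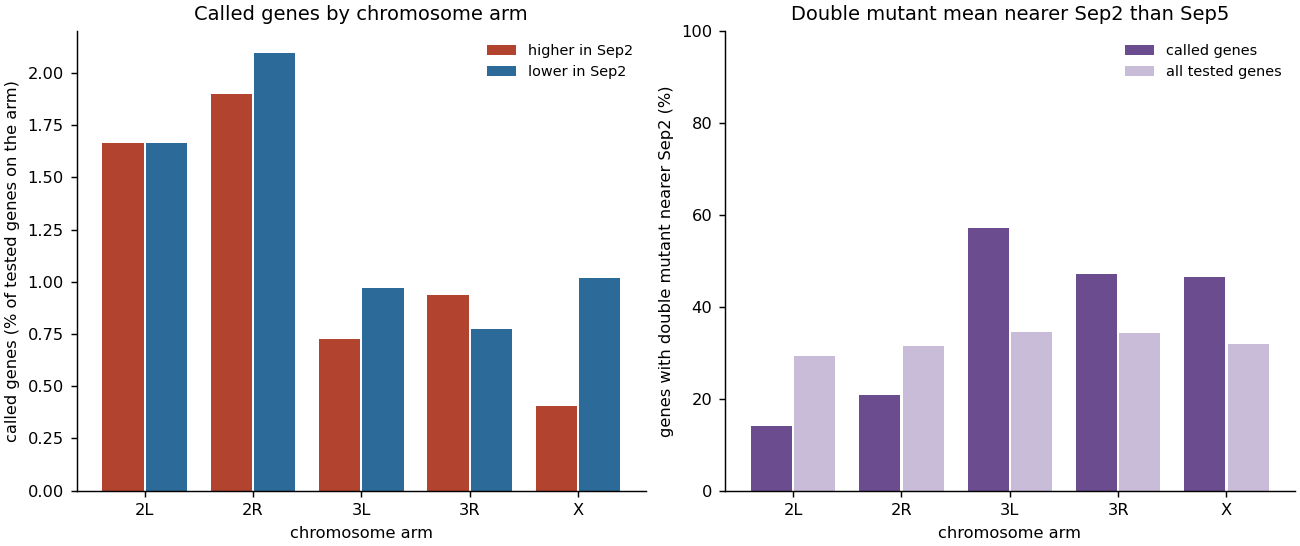
Left, genes called higher (red) and lower (blue) in Sep2 than in Sep5 larvae as a percentage of tested genes on each chromosome arm. Right, the percentage of genes whose double mutant mean is nearer the Sep2 than the Sep5 mean, for called genes (dark) and all tested genes (light): called genes lie below all tested genes on 2L and 2R and above them on 3L, 3R and X. On 2R uncalled genes with a 2-fold difference, not drawn, lie at 19.4%, against 20.8% for called genes.

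The white gene w (X), an ABC transporter of eye pigment precursors, differed. It had 0.665, 1.36 and 0.702 CPM in Sep2 larvae, against 7.90, 8.35 and 5.23 CPM in Sep5 larvae, without overlap, with a log2 fold change of -2.91 ± 0.49 (SE; limma adjusted p = 0.00491). Double mutants had 4.44 to 20.6 CPM and controls 1.42 to 2.38 CPM. The gene overlaps kirre, and how reads of overlapping genes were assigned is not stated in the labels. Of 17 tested eye pigment genes, w was the only one called, and the median of the list was -0.07.

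Hemocytes are the blood cells of the larva. Of 15 hemocyte markers, 2 were higher (13.3%, against 2.43% of all tested genes called) and none lower, 9 had positive log2 fold changes, and the median was 0.34. Summed over all 15, they came to 932 to 1718 CPM in Sep2 and 784 to 1262 CPM in Sep5 larvae, which overlap. The 6 markers fixed for this cell type, PPO1 and eater among them, came to 345 to 1004 CPM in Sep2 and 185 to 282 CPM in Sep5 larvae. PPO1, the prophenoloxidase of crystal cells, had 232, 75.9 and 182 CPM in Sep2 larvae, against 35.0, 22.7 and 27.8 CPM in Sep5 larvae, with a log2 fold change of 2.39 ± 0.55 (SE; limma adjusted p = 0.0330). eater, a phagocytic receptor of plasmatocytes, had 12.4, 12.1 and 14.4 CPM in Sep2 larvae, against 6.61, 4.53 and 3.06 CPM in Sep5 larvae, with a log2 fold change of 1.505 ± 0.35 (SE; limma adjusted p = 0.0381). The call of PPO1 ended when any single-mutant library but Sep2 replicate 2 was left out (adjusted p 0.0615 to 0.161, over all alternatives 0.00149 to 0.161), and that of eater without any single-mutant library but Sep5 replicate 1 and without control replicate 1 or 3 (0.0511 to 0.198, over all alternatives 0.00135 to 0.198). Tep1, a complement-like thioester protein gene, had 54.8, 51.8 and 66.8 CPM in Sep2 larvae, against 23.8, 8.10 and 7.76 CPM in Sep5 larvae, with a log2 fold change of 2.32 ± 0.33 (SE; limma adjusted p = 0.00140).

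Of 44 antimicrobial peptide and immune effector genes, 1 was higher and 1 lower (4.55% called, against 2.43% of all tested genes), with a median of 0.28. AttA, an attacin, had 4.17, 13.3 and 7.16 CPM in Sep2 larvae, against 0.477, 0.719 and 0.597 CPM in Sep5 larvae. For AttA the log2 fold change was 3.47 ± 0.57 (SE; limma adjusted p = 0.00368), with 4.69 to 18.9 CPM in double mutants and 0.288 to 1.47 CPM in controls. BomBc3, a bomanin gene, had 0.181, 0.107 and 0.281 CPM in Sep2 larvae, against 1.36, 0.602 and 1.34 CPM in Sep5 larvae. For BomBc3 the log2 fold change was -2.10 ± 0.36 (SE; limma adjusted p = 0.00491), and the gene missed the threshold where only the Sep2 and Sep5 libraries were fitted (adjusted p = 0.0799, over all alternatives 0.000175 to 0.0799). All 7 lysozymes, which in flies mostly serve digestion of bacteria in the gut, had positive log2 fold changes, with a median of 1.49, and 1 passed the threshold. LysB had 944, 451 and 1003 CPM in Sep2 larvae, against 161, 146 and 221 CPM in Sep5 larvae. For LysB the log2 fold change was 2.12 ± 0.47 (SE; limma adjusted p = 0.0260), with 5.72 to 29.8 CPM in controls. The LysB call ended when any single-mutant library but Sep2 replicate 2 was left out (adjusted p 0.0563 to 0.124, over all alternatives 0.00266 to 0.124). LysC (log2 fold change 2.56, limma adjusted p = 0.215), LysD (log2 fold change 2.48, limma adjusted p = 0.198) and LysE (log2 fold change 1.02, limma adjusted p = 0.341) did not pass under the main settings. All 3 passed with sample weights, and LysC and LysD also with only the Sep2 and Sep5 libraries and without control replicate 4. LysC passed with 1 CPM added and with voom too. Over all alternatives adjusted p ran 0.0139 to 0.495 for LysC, 0.00715 to 0.432 for LysD and 0.0361 to 0.719 for LysE. These near-identical copies can share reads.

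Among the other genes with the largest increases in Sep2 larvae, CG16995 had 20.7, 31.5 and 33.2 CPM, against 4.09, 6.25 and 5.15 CPM in Sep5 larvae, with a log2 fold change of 2.44 ± 0.26 (SE; limma adjusted p = 0.000113). Cht4, a chitinase gene, had 39.7, 29.97 and 75.3 CPM in Sep2 larvae, against 8.10, 6.53 and 11.1 CPM in Sep5 larvae, with a log2 fold change of 2.41 ± 0.37 (SE; limma adjusted p = 0.00244). Cpr51A, a chitin-binding cuticle protein gene, had 26.5, 35.7 and 36.8 CPM in Sep2 larvae, against 10.8, 5.83 and 5.90 CPM in Sep5 larvae, with a log2 fold change of 2.17 ± 0.31 (SE; limma adjusted p = 0.00130). For all of these the lowest Sep2 library was above the highest Sep5 library, which the rule for naming them required and every called gene met. The pseudogene CR33318 had 20.5, 29.8 and 13.3 CPM in Sep2 larvae, against 2.52, 5.87 and 4.33 CPM in Sep5 larvae. For CR33318 the log2 fold change was 2.30 ± 0.51 (SE; limma adjusted p = 0.0284), a call that ended without Sep2 replicate 1 or 2 or Sep5 replicate 1 or 3 (adjusted p 0.0908 to 0.136, over all alternatives 0.00154 to 0.136).

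Of the largest decreases, Prx6c, a peroxiredoxin gene, had 5.50, 5.44 and 3.00 CPM in Sep2 larvae, against 23.4, 20.7 and 46.5 CPM in Sep5 larvae. For Prx6c the log2 fold change was -2.63 ± 0.36 (SE; limma adjusted p = 0.00105), with 45.9 to 69.0 CPM in double mutants and 3.26 to 7.43 CPM in controls. NT5E-2, a nucleotidase gene, had 8.94, 23.4 and 10.3 CPM in Sep2 larvae, against 83.2, 45.9 and 54.9 CPM in Sep5 larvae, with a log2 fold change of -2.19 ± 0.35 (SE; limma adjusted p = 0.00283). Double mutants had 67.4 to 142 CPM and controls 6.32 to 8.55 CPM of NT5E-2, so for both genes Sep2 larvae lay near the controls. CG34215 had 1.69, 1.47 and 2.11 CPM in Sep2 larvae, against 9.19, 9.19 and 17.8 CPM in Sep5 larvae, with a log2 fold change of -2.67 ± 0.46 (SE; limma adjusted p = 0.00525). CG31955 had 2.66, 2.25 and 1.03 CPM in Sep2 larvae, against 15.6, 13.6 and 6.72 CPM in Sep5 larvae, with a log2 fold change of -2.56 ± 0.37 (SE; limma adjusted p = 0.00140). Neither overlapped between groups, which the naming rule required.

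A further 5 of the largest decreases lost their calls when single libraries were left out, with folds that stayed negative, and also without a filter on low values. CG4716 (log2 fold change -3.84, limma adjusted p = 0.0119) lost its call without Sep2 replicate 1 or 2 or Sep5 replicate 3 (log2 fold change -3.70 to -3.48, adjusted p 0.0588 to 0.0690, over all alternatives 8.90e-05 to 0.0690), and CG18417 (log2 fold change -2.98, limma adjusted p = 0.0284) without Sep2 replicate 1 or 3 or Sep5 replicate 3 (log2 fold change -2.74 to -2.32, adjusted p 0.105 to 0.154, over all alternatives 0.000274 to 0.154). CG5070 (log2 fold change -2.38, limma adjusted p = 0.0335) lost it without Sep2 replicate 1 or 2 or Sep5 replicate 1 or 3 (log2 fold change -2.45 to -1.92, adjusted p 0.0735 to 0.180, over all alternatives 0.000937 to 0.180), and CG4653 (log2 fold change -2.10, limma adjusted p = 0.0356) without any single-mutant library but Sep5 replicate 1 (log2 fold change -2.15 to -1.79, adjusted p 0.0672 to 0.186, over all alternatives 0.000809 to 0.186). The ribosomal precursor pre-rRNA:CR45845 had 1.87, 1.002 and 1.78 CPM in Sep2 larvae, against 10.3, 13.98 and 13.5 CPM in Sep5 larvae (log2 fold change -2.99, limma adjusted p = 0.0132), and lost its call without Sep2 replicate 2 or Sep5 replicate 3 (log2 fold change -2.94 to -2.72, adjusted p 0.0587 to 0.0687, over all alternatives 0.000701 to 0.0687). It shares its sequence with the mature rRNAs. The share of reads on nuclear rRNA was 1.38 to 2.62% in Sep2 and 0.709 to 1.57% in Sep5 larvae, which overlap.

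In all, 37 gene lists with 915 tested genes were counted, and 17 of them held at least 1 called gene. Of all tested genes 2.43% were called, and no list share was tested against this. Under the main settings, Septin5 itself was the only one called of 22 cytokinesis genes (median log2 fold change 0.15). None of 28 microtubule-associated proteins and motors (0.04), 7 tubulins (-0.05), 31 actin regulators (0.03) or 27 postsynaptic neuromuscular genes (-0.16) passed the threshold. The members nearest to it were CLIP-190, a microtubule plus-end protein, with 157, 158 and 214 CPM in Sep2 and 328, 259 and 308 CPM in Sep5 larvae (log2 fold change -0.77, limma adjusted p = 0.0861), gammaTub23C (log2 fold change 0.49, limma adjusted p = 0.351), Act42A (log2 fold change 0.54, limma adjusted p = 0.143) and metro (log2 fold change -0.74, limma adjusted p = 0.191). With sample weights CLIP-190 (limma adjusted p = 0.00354), metro (0.0113) and Act42A (0.0173) passed, and Act42A also passed without a filter on low values (0.0430). Of 29 presynaptic release genes (median 0.01), stj, the alpha-2-delta subunit of a calcium channel, was higher, with 26.0, 16.5 and 31.2 CPM in Sep2 larvae, against 11.3, 11.4 and 13.2 CPM in Sep5 larvae, with a log2 fold change of 0.99 ± 0.22 (SE; limma adjusted p = 0.0315). That call ended when any single-mutant library but Sep2 replicate 2 was left out (adjusted p 0.0728 to 0.146, over all alternatives 0.00132 to 0.146), and also with quantile normalization and with median centring. Of 16 glial markers (median -0.12), wrapper was higher (log2 fold change 1.58, limma adjusted p = 0.0494), a call that 10 of the 14 runs leaving out 1 library ended (0.0517 to 0.212, over all alternatives 0.00455 to 0.212). The summed markers of neurons came to 184 to 250 CPM in Sep2 and 245 to 287 CPM in Sep5 larvae.

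No sarcomere gene was called lower in Sep2 larvae under the main settings. Of 26 sarcomere genes 24 had negative log2 fold changes, with a median of -0.72, against 0.01 for all tested genes, and over the alternatives the median ran -1.07 to -0.54. Summed body wall muscle markers came to 7930 to 20205 CPM in Sep2 and 17008 to 38379 CPM in Sep5 larvae, which overlap. The only called member, TpnC41C, a troponin C gene, was higher, with 2.36, 2.72 and 3.18 CPM in Sep2 larvae, against 0.817, 0.408 and 0.672 CPM in Sep5 larvae, with a log2 fold change of 2.03 ± 0.32 (SE; limma adjusted p = 0.00286). All 15 glycolysis genes had negative log2 fold changes (median -0.62; Gpo1 -1.31, limma adjusted p = 0.108), as had 48 of 50 nuclear oxidative phosphorylation genes (median -0.35; RFeSP -0.76, limma adjusted p = 0.158) and 85 of 91 cytosolic ribosomal proteins (median -0.38; RpS27 -0.77, limma adjusted p = 0.206), and none was called. The 31 proteasome genes all had positive ones (median 0.43; Rpn12 0.67, limma adjusted p = 0.203), again with none called. These medians kept their signs over all alternatives, at -0.91 to -0.39 for glycolysis, -0.48 to -0.25 for oxidative phosphorylation, -0.48 to -0.19 for cytosolic ribosomal proteins and 0.26 to 0.67 for the proteasome. With sample weights, 12 sarcomere, 6 glycolysis, 14 oxidative phosphorylation and 21 cytosolic ribosomal protein genes were called lower and 8 proteasome genes higher. Under each of the other alternatives at most 1 sarcomere gene was called lower, and none of the other 4 lists held a call. The part of muscle content in these values was not tested.

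**Figure D5:**
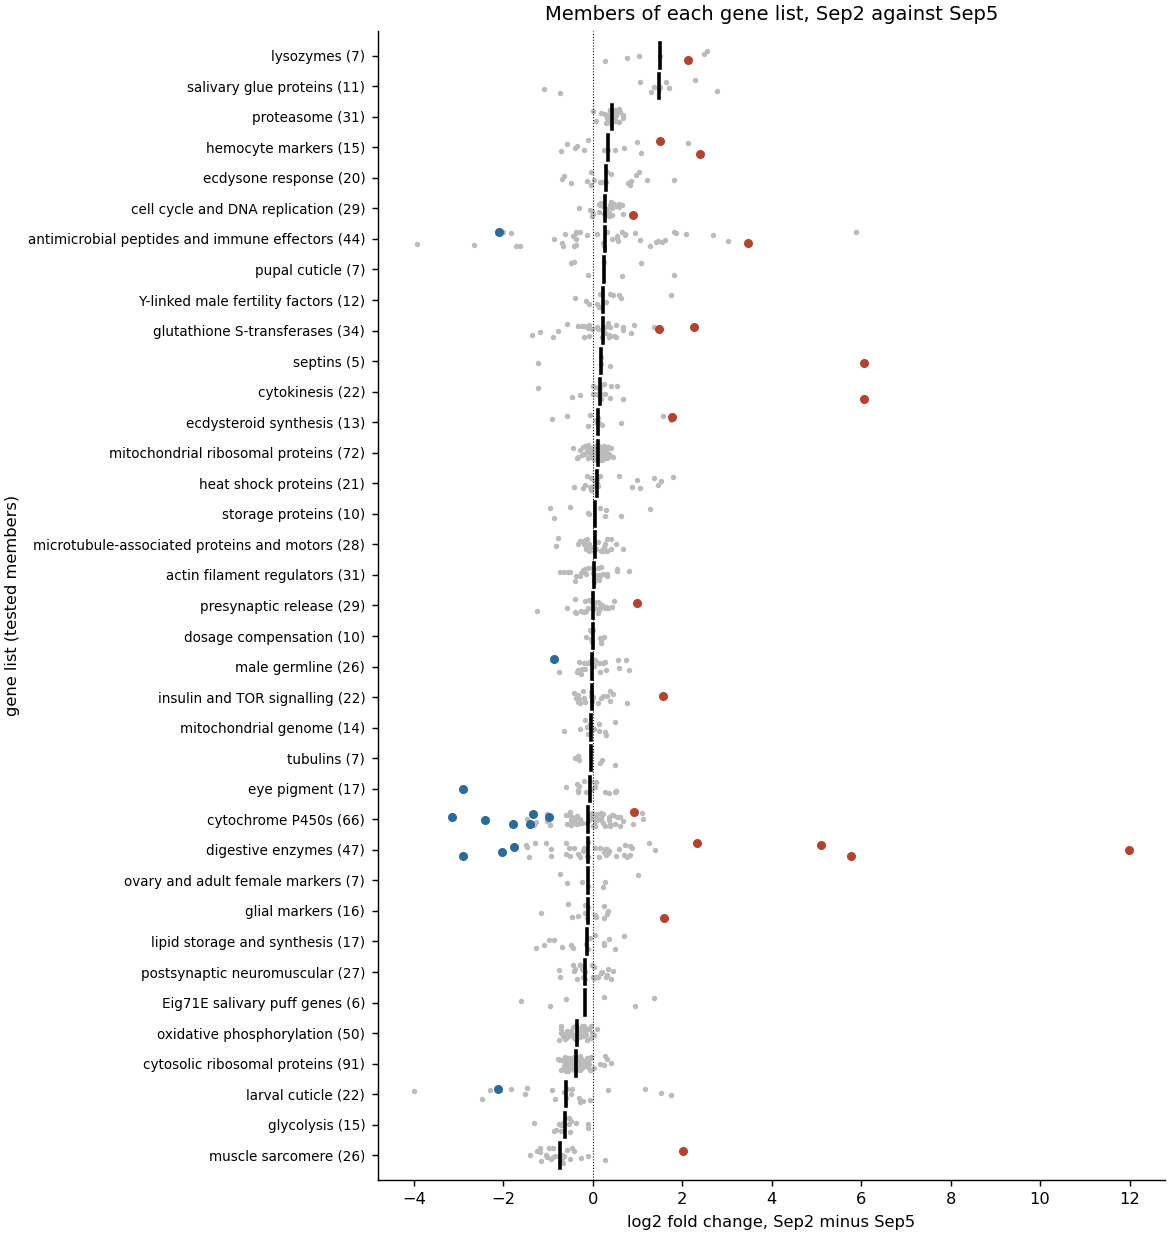
Log2 fold change of Sep2 over Sep5 larvae for each tested member (points) of the 37 gene lists, ordered by the list median (black bar), with the number of tested members in parentheses. Red and blue points are members called higher and lower in Sep2 larvae, and the dotted line is the median of all tested genes, 0.01. Most lists centre near that line, while muscle sarcomere, glycolysis and larval cuticle lie to its left and lysozymes and salivary glue proteins to its right.

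Of 11 glue protein genes, which larvae secrete before pupariation, 9 had positive log2 fold changes (median 1.48), and none was called, with 4 called higher under sample weights. Summed salivary gland markers came to 17278 to 20547 CPM in Sep2 and 3629 to 13280 CPM in Sep5 larvae, without overlap. Sgs4 had 1601, 1977 and 2074 CPM in Sep2 larvae, against 734, 134 and 206 CPM in Sep5 larvae. For Sgs4 the log2 fold change was 2.78 ± 0.85 (SE; limma adjusted p = 0.121), and controls spread over 235 to 1574 CPM. The ecdysone response genes, which follow the moulting hormone, included no call among 20 (median 0.29; ImpE2 1.82, limma adjusted p = 0.327), and Eig71Ee, a puff gene, had a log2 fold change of 1.36 (limma adjusted p = 0.396). Of 13 ecdysteroid synthesis genes (median 0.12), nvd, the Rieske oxygenase that opens the pathway, was higher, with 2.66, 4.47 and 5.10 CPM in Sep2 larvae, against 1.23, 1.18 and 0.896 CPM in Sep5 larvae, with a log2 fold change of 1.78 ± 0.38 (SE; limma adjusted p = 0.0245). That call ended without Sep2 replicate 2 or 3 or Sep5 replicate 1 or 3 (adjusted p 0.0555 to 0.117, over all alternatives 0.00627 to 0.117). The part of developmental stage in these values was not tested.

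Cuticle, growth and germline lists held few calls. Of 22 larval cuticle genes (median -0.59), Cpr47Eb was lower, with 23.6, 21.2 and 40.9 CPM in Sep2 larvae, against 123, 69.2 and 197 CPM in Sep5 larvae (log2 fold change -2.11 ± 0.36, SE; limma adjusted p = 0.00521) and 390.2 to 688 CPM in double mutants. Of 7 pupal cuticle genes none was called (Cpr49Ah 1.81, limma adjusted p = 0.0549). Cpr49Ah passed the threshold with 1 CPM added (adjusted p = 0.0464), quantile normalization (0.0438), voom on the recovered reads (0.0457), sample weights (0.0138) and without control replicate 1 (0.0391) or 3 (0.0242). Cdk1, the mitotic kinase, was the 1 higher gene among 29 of cell cycle and DNA replication (median 0.28), with 32.9, 45.2 and 30.7 CPM in Sep2 larvae, against 19.8, 19.3 and 18.5 CPM in Sep5 larvae, with a log2 fold change of 0.89 ± 0.19 (SE; limma adjusted p = 0.0199). It missed the threshold without Sep2 replicate 1 or 2 or Sep5 replicate 1 or 3 (adjusted p 0.0524 to 0.0989, over all alternatives 0.00199 to 0.104). Ilp2, an insulin-like peptide of brain neurosecretory cells, was the 1 called gene among 22 of insulin and TOR signalling (median -0.02; Ilp2 1.57, limma adjusted p = 0.0471), and 11 of the 14 runs leaving out 1 library ended its call (0.0532 to 0.164, over all alternatives 0.0248 to 0.164). Of 26 male germline genes (median -0.01), achi, a homeobox gene needed for spermatogenesis, was lower (log2 fold change -0.88, limma adjusted p = 0.0362), and 7 of those runs ended its call (0.0509 to 0.178, over all alternatives 0.00112 to 0.178).

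The remaining lists held no call in this comparison under the main settings. Among heat shock proteins Hsp67Bc had the smallest p (log2 fold change 1.80, limma adjusted p = 0.137), among storage proteins Lsp1beta (log2 fold change -0.87, limma adjusted p = 0.275), among lipid genes AkhR, the adipokinetic hormone receptor (log2 fold change -0.86, limma adjusted p = 0.0920), among mitochondrial ribosomal proteins mRpL51 (log2 fold change 0.46, limma adjusted p = 0.289), among dosage compensation genes msl-2 (log2 fold change 0.26, limma adjusted p = 0.669) and among ovary and adult female markers zpg (log2 fold change -0.73, limma adjusted p = 0.366). The Y-linked gene Pp1-Y1 had 1.33, 2.40 and 0.983 CPM in Sep2 and 0.136, 0.777 and 0.448 CPM in Sep5 larvae (log2 fold change 1.75, limma adjusted p = 0.0944), and passed the threshold with quantile normalization (adjusted p = 0.0403), with sample weights (0.0136) and without Sep5 replicate 2 (0.0410). The male share of the larvae is not given in the labels. With sample weights Hsp67Bc (adjusted p = 0.00322), Lsp1beta (0.0249) and AkhR (0.00308) passed too. Of the mitochondrial genome, mt:lrRNA took 5.74 to 7.25% of reads in Sep2 and 6.70 to 11.8% in Sep5 larvae (log2 fold change -0.65, limma adjusted p = 0.523).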

How the data were processed

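Polyadenylated RNA of whole larvae was sequenced. Its deposited values are log2 CPM, which the authors scaled by TMM per the series' labels. The submitters' processing notes name STAR 2.7.11b, FastQC 0.11.9, edgeR 3.40, cutadapt 3.5 and, as builds, dm6 and BDGP6. The read counter and its use of strand are not stated there, so genes that overlap or are near-identical may have shared reads.

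Values less the table's floor (-3.65 log2 CPM) were whole multiples of 1 read for 100% of 250166 values within 0.01 reads. This gave reads per library and an added count of 2.00 reads on average, which pulls fold changes of low genes towards 0. Recovered reads gave the CPM values printed. Intervals are exact binomial ones at 95% and, like floors of 3 reads, cover counting error only. Replicates of both single mutants differed far beyond sampling noise (chi-square per degree of freedom 57.6 to 140.0 over genes with at least 10 reads). Ensembl's BDGP6 annotation gave positions for 17790 of 17869 genes.

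limma 3.58.1 in R 4.3.3 was fitted to the log2 CPM of all 14 libraries, with genotype as the single term, an intensity trend and robust shrinkage, after tests on simulated data. Adjusted p-values are Benjamini-Hochberg values over 12586 genes, with 0.05 as the threshold for calling a gene. Named are the septins and w, the 15 largest changes in each direction and 4 called genes within 1 Mb of each septin locus. Up to 4 called members of each list, or its smallest p, are named too. The 15 largest were taken among called genes averaging at least 2 log2 CPM whose groups did not overlap, as held for all 306. The genes compared, the lists and the rules were chosen with earlier results of these data known. The alternatives changed the filter, pseudocount, scaling, variance model, weights, libraries and replicate block, or left out each library. Of the listed symbols, 14 found no row and were not analysed here.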

Additional observations from a re-analysis of the deposited data

Results flagged for a closer look

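In 7 of 152 groups of 4 libraries, the highest or lowest library of a named gene stood apart by the 95% critical value of Dixon's test, which chance exceeds in about 1 in 20 groups. All 7 are log2 CPM values of double mutant or control libraries, not of the Sep2 or Sep5 libraries, whose groups of 3 are not examined in this way. Double mutant replicate 4 was low for CG12824 (4.29) and eater (1.92) and high for ImpE2 (2.30). Double mutant replicate 2 was high for GstE14 (2.03) and low for RFeSP (7.48). Control replicate 1 was high for Cht4 (4.09), and control replicate 2 was low for Tep1 (4.15).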

How the results depend on the processing

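Of the 306 genes called between Sep2 and Sep5 larvae, 96 were called under all 26 alternatives, and none changed sign under any. The count was 187 with only the libraries of both groups, 167 against a minimum change of 1.2-fold and 1844 with sample weights, which gave Sep2 replicate 1 a weight of 9.75; the cause was not tested. Leaving out 1 library gave 155 to 342. The share called higher in Sep2 larvae, 46.4%, was 58.0% without Sep5 replicate 1. For Sep2 against control the count of 566 became 300 with the minimum change and 4091 with sample weights, and 312 to 617 with 1 library left out. For Sep5 against control the count of 646 became 334 with the minimum change and 350 with only both groups, and 238 to 1373 with 1 library left out. The sign turned for Septin1 without Sep5 replicate 3 (-0.0475, and -0.0475 to 0.37 with 1 library left out), far from the threshold. Quantile normalization gives no fold change for mt:lrRNA, the highest gene in all 14 libraries, which it sets to 1 value. Whether replicate numbers pair the Sep2 and Sep5 libraries stayed undecided. Libraries numbered 1 correlated at -0.24, those numbered 2 at 0.45 and those numbered 3 at 0.44, and 4 of 6 correlated best with their own number. The main fit did not use replicate numbers. With the replicate block the count was 336 between Sep2 and Sep5, and 528 and 592 against the control for Sep2 and Sep5. Among named genes Cpr49Ah (0.0372) and Hsp67Bc (0.0452) then passed the threshold and Cyp6a20 (0.0621), Ilp2 (0.0683) and wrapper (0.0554) missed it (limma adjusted p). The count-based fit, voom on the recovered reads, called 268 genes between Sep2 and Sep5, 133 higher and 135 lower in Sep2. Tests of edgeR and DESeq2 on recovered reads were not run. With 3 libraries per group and 154 of the called genes averaging under 2 log2 CPM, the absence of a call says little about low genes.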
